A study of Bos taurus with 12 samples.

Results

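The 12 Holstein cows of the series were ordered by the glutathione peroxidase (GSH-Px) activity recorded for each animal on day 7 after calving, and the order was set against the RNA-seq counts of white blood cells from jugular blood drawn on that same day. The members were thus chosen by the day 7 activity: the 6 cows with the highest values formed the high class and the other 6 the low class. All 12 of 12 cows entered one of these classes, and the rank from 1 (lowest) to 12 (highest) was used as a second measure. Of the 12 cows, 6 had received mineral supplementation and 6 were labelled controls. The labels name no product, dose or route. All were female and of the Holstein breed, no age is stated, and each library came from a separate cow. The high class held 2 supplemented and 4 control cows, and the low class held 4 supplemented and 2 control cows (Fisher's exact test, two-sided, p = 0.567).

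Glutathione peroxidases reduce hydrogen peroxide and lipid hydroperoxides with glutathione as the electron donor, and several of them carry selenium as selenocysteine in the active site. Oxidised glutathione is reduced again by glutathione reductase with NADPH, much of it from the pentose phosphate pathway. In cattle most of the activity of whole blood sits in red cells, and it is widely used as a measure of selenium status. Neither labels nor sheets state the unit, assay or material of the GSH-Px values, so activities are printed as recorded.

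On day 7 the high class held supplemented cow 4 at 124.4, control cow 1 at 98.91, control cow 6 at 90.82, control cow 2 at 86.22, control cow 3 at 85.14 and supplemented cow 3 at 83.92. The low class held supplemented cow 1 at 81.62, supplemented cow 6 at 80.1, supplemented cow 2 at 77.09, control cow 5 at 67.96, supplemented cow 5 at 65.52 and control cow 4 at 53.21. These values chose the classes and are a description only. Supplemented cow 3, just inside the high class, and supplemented cow 1, just outside it, stood close together. Subtracting the mean of each treatment group left the rank of all 12 cows as it was.

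The classes did not pass a test on the other days. On day 0 the activity averaged 73.0 ± 18.2 in high cows and 73.8 ± 13.6 in low cows (SD, n = 6 each). On day 4 it averaged 73.0 ± 17.8 in high cows and 83.0 ± 3.78 in low cows, and on day 14 it averaged 79.5 ± 15.2 in high cows and 89.4 ± 31.5 in low cows. The exact permutation test over all splits of 6 against 6 cows, two-sided, gave adjusted p = 0.939 on day 0, 0.63 on day 4 and 0.744 on day 14. On the other days both class ranges overlapped: control cow 6 of the high class had the highest day 4 value, at 105.43, and control cow 5 of the low class had the highest day 14 value, at 132.56. Without control cow 6 the day 4 activity of high cows differed from that of low cows by -16.4 with an adjusted p of 0.00649 in the exact test, opposite to the order on day 7. Across the 12 cows day 7 activity had Pearson's r = -0.10 with day 0, -0.46 with day 4 and -0.020 with day 14, and Spearman's rho of -0.0070, -0.52 and -0.070 in the same order of days. The permutation p-values of r were 0.755, 0.132 and 0.95 (adjusted over the 3 relations 0.95, 0.397 and 0.95), and those of rho were 0.991, 0.0843 and 0.834 (adjusted 0.991, 0.253 and 0.991). Without supplemented cow 4 and control cow 4, the 2 cows farthest from the median activity, r was -0.33, -0.087 and -0.34.

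**Figure D1:**
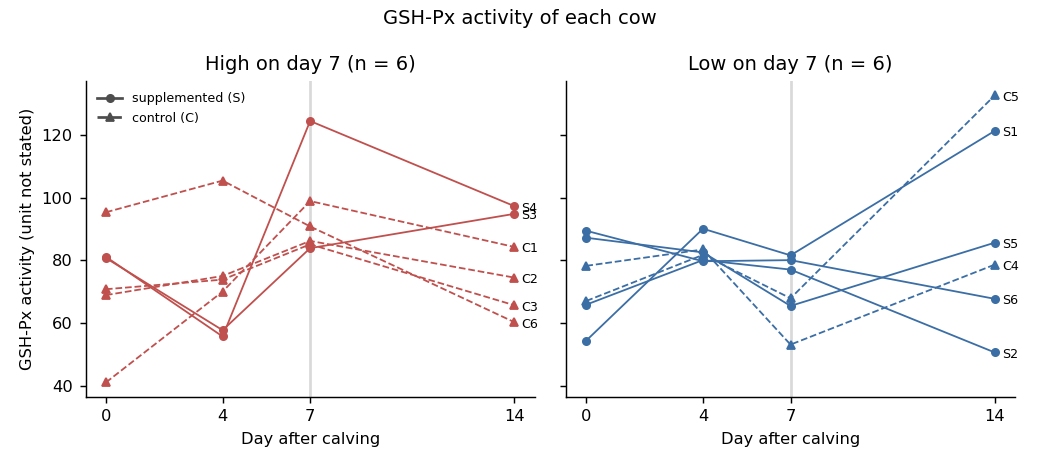
GSH-Px activity (y axis, unit not stated) of each cow on days 0, 4, 7 and 14 after calving (x axis), in the 6 high cows (left, red) and the 6 low cows (right, blue). Circles with solid lines are supplemented cows and triangles with dashed lines are control cows; the vertical line marks day 7, which chose the classes, and supplemented cow 4 reaches 124.4 there.

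Superoxide dismutase (SOD), AC, TBARS, OSi (TBARS divided by AC) and milk also did not separate the classes. SOD on day 7 averaged 0.473 ± 0.188 in high cows and 0.459 ± 0.151 in low cows, and TBARS averaged 0.730 ± 0.19 in high cows and 0.791 ± 0.16 in low cows (SD, n = 6 each). AC averaged 0.764 ± 0.232 in high cows and 0.818 ± 0.244 in low cows, OSi averaged 1.05 ± 0.452 in high cows and 1.05 ± 0.374 in low cows, and milk on day 30 averaged 35.7 ± 6.15 in high cows and 37.2 ± 2.56 in low cows. All 5 had an adjusted p of 0.994 in the exact permutation test and no stated unit.

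The libraries held 6778640 to 16851541 counts over the 27429 genes of the table, and the 11990 genes averaging 10 raw counts or more were tested. None of 8 library measures, total count among them, passed the exact permutation test after adjustment. The library of supplemented cow 6 stood apart: its 10 most counted genes took 11.4% of its counts, against 7.57% to 8.86% in the other 11. The labels call the material white blood cells. The B cell gene CD79A was at 160 to 1250 CPM (counts scaled to TMM-adjusted library size) and the T cell gene CD3E at 68.1 to 490 CPM over the 12 libraries, and the neutrophil gene S100A12 was at 168 to 38989 CPM. The index sequences of the libraries fall into 2 sets, with 3 high and 5 low cows in one and 3 high and 1 low cow in the other.

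No gene passed the test between the activity classes, while the shift in unadjusted p-values was broad. By edgeR's quasi-likelihood test 0 of 11990 genes (0%) had an adjusted p under 0.05. The lowest adjusted p was 0.0515, and 631 genes shared it, 122 higher and 509 lower in high cows. The unadjusted p was under 0.05 for 4441 genes (37%), of which 1949 (16.3%) had higher values and 2492 (20.8%) had lower values in high cows. The CPM ranges of the classes did not overlap for 96 genes with higher values (0.801%) and 95 with lower values (0.792%) in high cows, 191 in all (1.59%). The first principal component held 56.6% of the variance and averaged -41.5 ± 24.5 in high cows and 41.5 ± 53.9 in low cows (SD, n = 6 each; exact permutation p = 0.0108, adjusted p = 0.0866 over the 8 library measures). Without supplemented cow 1 that difference passed, with an adjusted p of 0.0346 in the exact test. The count of calls stood at the edge of the threshold. DESeq2 called 2746 genes (22.9%), 813 higher and 1933 lower, edgeR without robust estimation called 659 (5.5%), and limma-voom called 0. edgeR called 3766 genes without supplemented cow 1, 2209 without supplemented cow 5, 1118 without supplemented cow 4 and 900 without control cow 1, and 0 when any of the other 8 cows was left out. With treatment as a covariate it called 0, with 3969 genes (33.1%) at an unadjusted p under 0.05.

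The 5 genes with the lowest p-values among those with lower values in high cows were CXCL8, CXCL2, CD69, CDKN1A and PHOSPHO1. CXCL8, a chemokine that draws neutrophils, had 13.7 CPM in supplemented cow 4, 47.8 in control cow 1, 28.2 in control cow 6, 14.96 in control cow 2, 32.9 in control cow 3 and 10.3 in supplemented cow 3, all of the high class. In the low class CXCL8 had 82.5 CPM in supplemented cow 1, 299.5 in supplemented cow 6, 169 in supplemented cow 2, 535 in control cow 5, 116 in supplemented cow 5 and 138 in control cow 4. Every low cow lay above every high cow, with control cow 5 highest and supplemented cow 3 lowest. The log2 fold change of high over low was -3.18 (SE 0.53), with an adjusted p of 0.0515 in edgeR.

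CXCL2, another chemokine, ranged from 8.51 over a median of 11.4 to 25.6 CPM in high cows and from 24.6 over a median of 79.7 to 339 CPM in low cows. Only the pair of control cow 1 in the high class and supplemented cow 1 in the low class crossed. The log2 fold change was -3.25 (SE 0.60). CD69, an early activation marker of lymphocytes and other leukocytes, ranged from 15.8 over 23.8 to 27.6 CPM in high cows and from 30.2 over 66.8 to 160 CPM in low cows, with no overlap and a log2 fold change of -1.77 (SE 0.33). CDKN1A, an inhibitor of cyclin-dependent kinases, ranged from 18.9 over 31.5 to 47.5 CPM in high cows and from 71.9 over 81.2 to 199 CPM in low cows. The classes again did not overlap, with a log2 fold change of -1.64 (SE 0.29). PHOSPHO1, a phosphatase acting on phosphocholine and phosphoethanolamine, had a median of 3.80 CPM in high cows and 20.7 CPM in low cows (log2 fold change -2.07, SE 0.36). Its ranges crossed because supplemented cow 1, with the highest activity in the low class, had 5.59 CPM, against 6.87 CPM in control cow 1 of the high class.

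The 5 genes with the lowest p-values among those with higher values in high cows were of mixed function. TLR10, a Toll-like receptor found on B cells in humans, ranged from 8.45 over a median of 23.3 to 28.7 CPM in high cows and from 1.92 over 3.70 to 9.64 CPM in low cows, a log2 fold change of 2.22 (SE 0.41). HS3ST1, a heparan sulfate sulfotransferase, ranged from 11.6 over 44.1 to 58.4 CPM in high cows and from 1.99 over 6.58 to 14.96 CPM in low cows (log2 fold change 2.52, SE 0.51). In both genes control cow 1 was the lowest of the high class and reached into the range of the low class. REPIN1, a zinc finger protein, ranged from 17.8 over 19.4 to 26.9 CPM in high cows and from 6.66 over 9.40 to 16.2 CPM in low cows, with no overlap (log2 fold change 1.07, SE 0.21). MRPL19, a protein of the mitochondrial ribosome, had a log2 fold change of 0.71 (SE 0.15), and CDC16, a subunit of the anaphase-promoting complex, had 0.66 (SE 0.14), and neither overlapped between classes. All 10 genes had an adjusted p of 0.0515 in edgeR, and each was called in the 6 settings that called any gene and in none of the other 22. They were chosen by their p-values in this comparison, so these calls are no separate support.

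**Figure D2:**
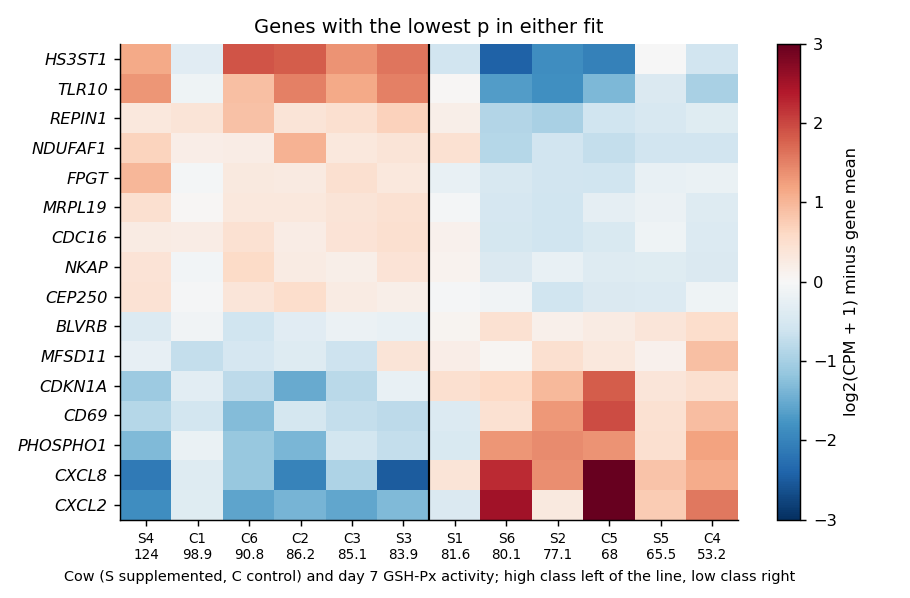
Expression of the 16 genes with the lowest p-values in the class or the rank comparison (rows), as log2(CPM + 1) minus the gene's mean over the 12 cows (colour, ending at 3 in either direction), with cows from the highest day 7 GSH-Px activity on the left to the lowest on the right (x axis, activity under each cow) and the high class left of the line. The step lies between supplemented cow 3 and supplemented cow 6, with supplemented cow 1 in between for several genes, and control cow 1 is paler than the other high cows. The genes were chosen by these comparisons, so a step near the class border follows from the choice and is a description only.

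As a continuous value the rank gave fewer genes. edgeR called 0 of 11990 (0%), with a lowest adjusted p of 0.347, and 1585 genes (13.2%) had an unadjusted p under 0.05, of which 739 (6.16%) had a positive and 846 (7.06%) a negative slope. DESeq2 called 29 genes and limma-voom called 0. With treatment as a covariate 1358 genes (11.3%) had an unadjusted p under 0.05 and 0 were called. The recorded activity in place of its rank gave 351 such genes (2.93%), with a lowest adjusted p of 0.838 in edgeR. The mean rank over the 4 days gave 324 (2.7%), with a lowest adjusted p of 0.884 in edgeR. Both shares were below the share of 0.05 that chance alone would give at this threshold, and 0 genes were called. When the class was added as a covariate, 156 genes (1.3%) had an unadjusted p under 0.05 for the rank.

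By the rank, the genes with the lowest p-values and negative slopes were CD69, BLVRB, PHOSPHO1, MFSD11 and CDKN1A. The slope of CD69 was -1.47 (SE 0.30) on the log2 scale per 6 ranks, with an adjusted p of 0.347 in edgeR. BLVRB, a flavin and biliverdin reductase, ranged from 24.2 over a median of 30.3 to 34.4 CPM in high cows and from 39.2 over 46.0 to 53.7 CPM in low cows, without overlap, and its slope was -0.53 (SE 0.11). MFSD11, a membrane protein of the major facilitator family, had 22.3 to 48.9 CPM in high cows and 38.5 to 70.6 CPM in low cows. Supplemented cow 3, at 48.9 CPM, was the one high cow inside the range of the low class, and the slope was -0.69 (SE 0.15). Positive slopes with the lowest p-values belonged to NDUFAF1, CEP250, FPGT, NKAP and REPIN1. NDUFAF1, an assembly factor of respiratory complex I, ranged from 17.6 over 19.5 to 32.2 CPM in high cows and from 7.87 over 9.92 to 21.1 CPM in low cows, and supplemented cow 1 alone among low cows was inside the range of the high class. Its slope was 0.88 (SE 0.22). The centrosomal protein gene CEP250 had a slope of 0.47 (SE 0.13), FPGT, an enzyme of fucose salvage, 0.69 (SE 0.19), NKAP, a nuclear protein of transcription and splicing, 0.55 (SE 0.15), and REPIN1 0.82 (SE 0.23).

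Among transcripts of the glutathione peroxidases themselves, GPX1, GPX3 and GPX4 had lower and GPX7 had higher mean values in high cows. Of the 5 members found in the table, 4 passed the count minimum and 0 were called, 2 of 4 had an unadjusted p under 0.05, beside 37% of all genes tested, and both of these had lower values in high cows. GPX1, the cytosolic enzyme that makes up most of the activity of red cells, had 623, 612, 446, 642, 557 and 452 CPM in high cows and 558, 1563, 871, 869, 578 and 818 CPM in low cows, from the highest activity to the lowest in each class. Supplemented cows 1 and 5 of the low class lay inside the range of the high class and supplemented cow 6 was far above all others. The log2 fold change was -0.66 (SE 0.23; adjusted p = 0.0764 in edgeR), and -0.41 without supplemented cow 6. With the myeloid score described further on as a covariate it was 0.071.

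GPX3, the secreted plasma enzyme, had 1.27, 2.15, 0.988, 0.394, 0.806 and 0.406 CPM in high cows and 2.26, 68.9, 4.73, 9.34, 2.60 and 5.52 CPM in low cows, in the same order. The classes did not overlap, by a narrow margin between control cow 1 of the high class and supplemented cow 1 of the low class. These levels are few reads: raw counts were 3 to 18 in high cows, and 19 to 63 in 5 low cows with 831 in supplemented cow 6. The log2 fold change was -3.95 (SE 0.93; adjusted p = 0.0515 in edgeR). Supplemented cow 6 decided much of its size, since without that cow it was -2.26.

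GPX4, which reduces lipid hydroperoxides in membranes, ranged from 35.0 over a median of 45.4 to 54.3 CPM in high cows and from 49.6 over 51.8 to 55.3 CPM in low cows. Its log2 fold change was -0.21 (SE 0.12; adjusted p = 0.209 in edgeR), and the classes overlapped. GPX7, an endoplasmic reticulum member that has cysteine in place of selenocysteine, ranged from 41.7 over 64.6 to 78.1 CPM in high cows. In low cows it ranged from 12.1 over 29.4 to 92.4 CPM, and supplemented cows 1 and 5 stood above every high cow while the other 4 stood below. The log2 fold change was 0.49 (SE 0.43; adjusted p = 0.41 in edgeR), and 0.28 to 0.79 with 1 cow left out. GPX8 had 0 or 1 count in each library and was not tested.

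**Figure D3:**
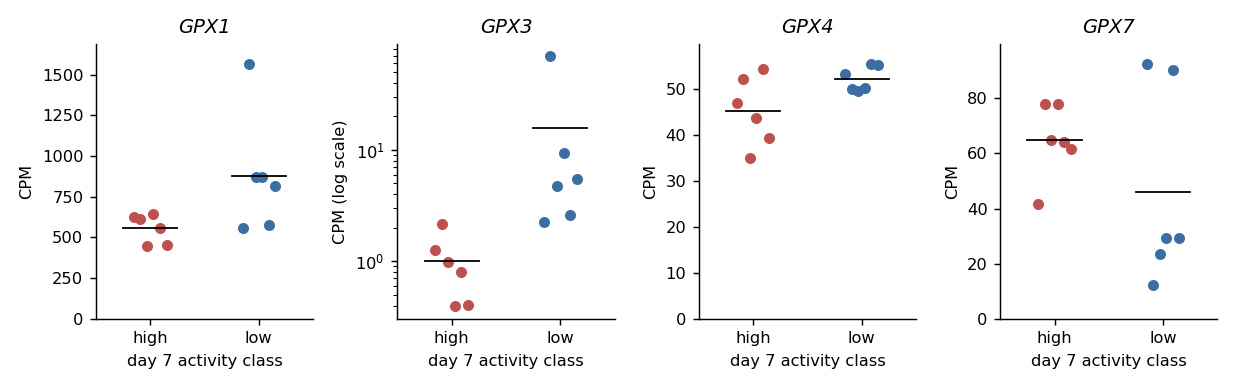
CPM (y axis; log scale for GPX3, from 0 for the other genes) of GPX1, GPX3, GPX4 and GPX7 in the 6 high cows (red, left) and the 6 low cows (blue, right) of day 7 GSH-Px activity, with the class mean as a line. In GPX1 and GPX3 the highest point is supplemented cow 6, at 1563 and 68.9 CPM.

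Among genes that make and recycle glutathione, 3 of 22 had higher and 10 of 22 had lower values in high cows at an unadjusted p under 0.05, beside 16.3% and 20.8% of all genes tested, and 0 were called. The median log2 fold change of the list was -0.39, beside 0.020 for all genes tested. SLC3A2, the heavy chain of the cystine transporter, averaged 40.8 CPM in high cows and 87.2 CPM in low cows (log2 fold change -1.10, SE 0.23). The glutaredoxin gene GLRX averaged 39.9 CPM in high cows and 106 CPM in low cows (-1.40, SE 0.37). GSR, glutathione reductase, ranged from 26.9 over a median of 36.0 to 44.8 CPM in high cows and from 35.6 over 60.1 to 83.3 CPM in low cows (-0.69, SE 0.22). GSS, glutathione synthetase, had -0.89 (SE 0.28), and the subunits of glutamate-cysteine ligase were on opposite sides, with 0.54 (SE 0.23) for the catalytic GCLC and -0.57 (SE 0.35) for the modifier GCLM, which was -0.14 without supplemented cow 6. The adjusted p-values in edgeR were 0.0625 for GSR, 0.0617 for GSS, 0.112 for GCLC and 0.243 for GCLM. Supplemented cow 6 and control cow 5, both low cows, had the highest and second highest first principal component. Supplemented cow 2, at 62.3, was close to control cow 5, at 63.6, and leaving out this pair was not planned beforehand. Without supplemented cow 6 and control cow 5 the median of the list was -0.13. It was -0.17 without supplemented cow 6 alone, and 0.035 with the myeloid score as a covariate.

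In the pentose phosphate and NADPH list, 0 of 11 had higher and 5 of 11 had lower values in high cows at an unadjusted p under 0.05, beside 16.3% and 20.8% of all genes. The median log2 fold change was -0.59, and -0.34 without supplemented cow 6. With the myeloid score as a covariate it was 0.066, with 0 of 11 at an unadjusted p under 0.05, beside 3.48% of all genes in that fit. PGD, an NADPH-forming enzyme of the pathway, averaged 100.5 CPM in high cows and 339.5 CPM in low cows (-1.76, SE 0.45).

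Of the superoxide dismutase, catalase, peroxiredoxin and NRF2 target list, 1 of 19 had higher and 10 of 19 had lower values in high cows at an unadjusted p under 0.05. Among all genes tested the shares were 16.3% and 20.8%. The median was -0.39, and -0.26 without supplemented cow 6 and control cow 5. In that fit 8 of 19 had an unadjusted p under 0.05, beside 19.9% of all genes. With the myeloid score as a covariate the median was -0.13, with 2 of 19, beside 3.48% of all genes. SOD2, the mitochondrial superoxide dismutase, ranged from 35.8 over a median of 46.1 to 119 CPM in high cows and from 82.7 over 285 to 4932 CPM in low cows. The top value was that of supplemented cow 6, and the log2 fold change was -4.11 (SE 0.996) with that cow and -1.96 without it. SOD1, the cytosolic enzyme, ranged from 118 over 129 to 170 CPM in high cows and from 93.5 over 145 to 181 CPM in low cows, with a log2 fold change of 0.0060 (SE 0.18) that changed sign under several settings. CAT, catalase, averaged 80.9 ± 12.9 CPM in high cows and 63.7 ± 11.1 CPM in low cows (0.34, SE 0.14; adjusted p = 0.107 in edgeR). SRXN1, which repairs oxidised peroxiredoxins, had -2.02 (SE 0.58), and the ferritin heavy chain FTH1 had -0.72 (SE 0.21).

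Selenium genes other than the peroxidases had no common direction. Of 12 other selenoprotein genes, 1 had higher and 4 had lower values in high cows at an unadjusted p under 0.05. Among all genes the shares were 16.3% and 20.8%. The median was -0.073, or -0.15 to -0.022 with 1 cow left out. SELENOK, an endoplasmic reticulum protein of immune cell calcium signalling, averaged 27.5 CPM in high cows and 51.0 CPM in low cows with no overlap (-0.89, SE 0.19). MSRB1, a methionine sulfoxide reductase, averaged 127 CPM in high cows and 361 CPM in low cows (-1.51, SE 0.49). SELENOP, the selenium transport protein, ranged from 26.2 over a median of 39.2 to 82.7 CPM in high cows and from 30.7 over 60.3 to 138 CPM in low cows (-0.54, SE 0.38; adjusted p = 0.288 in edgeR), and its log2 fold change was -0.21 without control cow 5. TXNRD1, thioredoxin reductase of the cytosol, ranged from 125 to 168 CPM in high cows and from 125 to 234 CPM in low cows (0.023, SE 0.16), and its sign also depended on the setting. Of 11 genes for selenium incorporation, 2 had higher and 2 had lower values at an unadjusted p under 0.05, near the 16.3% and 20.8% of all genes. The median was 0.31, and 0.045 with the myeloid score as a covariate. SECISBP2, which binds the selenocysteine insertion element, had 0.14 (SE 0.17; adjusted p = 0.548 in edgeR), and 0.027 to 0.26 with 1 cow left out.

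Myeloid marker genes had lower values in the cows with high activity. The myeloid score, the mean log2 CPM over 33 neutrophil and monocyte markers, was 4.82 in supplemented cow 4, 5.45 in control cow 1, 3.58 in control cow 6, 3.46 in control cow 2, 4.25 in control cow 3 and 4.27 in supplemented cow 3. In low cows it was 5.02 in supplemented cow 1, 8.85 in supplemented cow 6, 6.35 in supplemented cow 2, 6.24 in control cow 5, 4.996 in supplemented cow 5 and 7.23 in control cow 4. Only control cow 1 of the high class reached into the range of the low class, above supplemented cows 1 and 5. The score averaged 4.31 ± 0.753 in high cows and 6.45 ± 1.46 in low cows (SD, n = 6 each), a difference of -2.14 (exact permutation test, two-sided, p = 0.00866, adjusted p = 0.0271 over 10 scores). In bulk blood, fewer cells of a type and less RNA per cell cannot be told apart.

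Of the 10 marker scores, 4 passed the exact permutation test, each with an adjusted p of 0.0271. The myeloid score pools the neutrophil and monocyte markers, so its pass is no separate result beside the passes of those scores. The neutrophil score averaged 3.77 ± 1.01 in high cows and 6.48 ± 2.09 in low cows, and the monocyte score averaged 4.87 ± 0.62 in high cows and 6.42 ± 0.85 in low cows (SD, n = 6 each). The B cell score averaged 7.79 ± 0.207 in high cows and 6.49 ± 1.02 in low cows. The T cell score averaged 5.46 ± 0.743 in high cows and 6.43 ± 0.733 in low cows (adjusted p = 0.083 in the exact test), and NK, platelet, erythroid and eosinophil scores were 1.07 to 1.56 lower in high cows with adjusted p-values of 0.0563 to 0.115 in the exact test. The plasma cell score averaged 6.03 in high cows and 6.10 in low cows. After each score was centred by treatment group, 0 of 10 passed, and the myeloid difference was -1.92 (adjusted p = 0.0794 in the exact test). The number of scores that passed was 0 without supplemented cow 3, control cow 2, control cow 3 or control cow 6, 7 without supplemented cow 4 and 9 without supplemented cow 1. With any 1 cow left out the myeloid difference lay between -2.43 and -1.66.

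Within control cows the myeloid score averaged 4.19 in 4 high cows and 6.74 in 2 low cows, without overlap (exact permutation p = 0.0667, the smallest that this split allows). Within supplemented cows it averaged 4.55 in 2 high cows and 6.31 in 4 low cows, also without overlap (exact permutation p = 0.267). Over the 12 cows the myeloid score had Pearson's r = -0.40 (permutation p = 0.2, adjusted p = 0.494) and Spearman's rho = -0.60 (permutation p = 0.0437, adjusted p = 0.109) with the activity. None of the 10 scores passed after adjustment over the 10 relations. Without control cow 1, 3 of them passed on Spearman's rho, with -0.736 for the myeloid score. Without supplemented cow 4 and control cow 4, r was -0.32. With each measure centred by treatment, r was -0.45 and rho -0.63 (permutation p = 0.147 and 0.0326, adjusted p = 0.366 and 0.102).

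**Figure D4:**
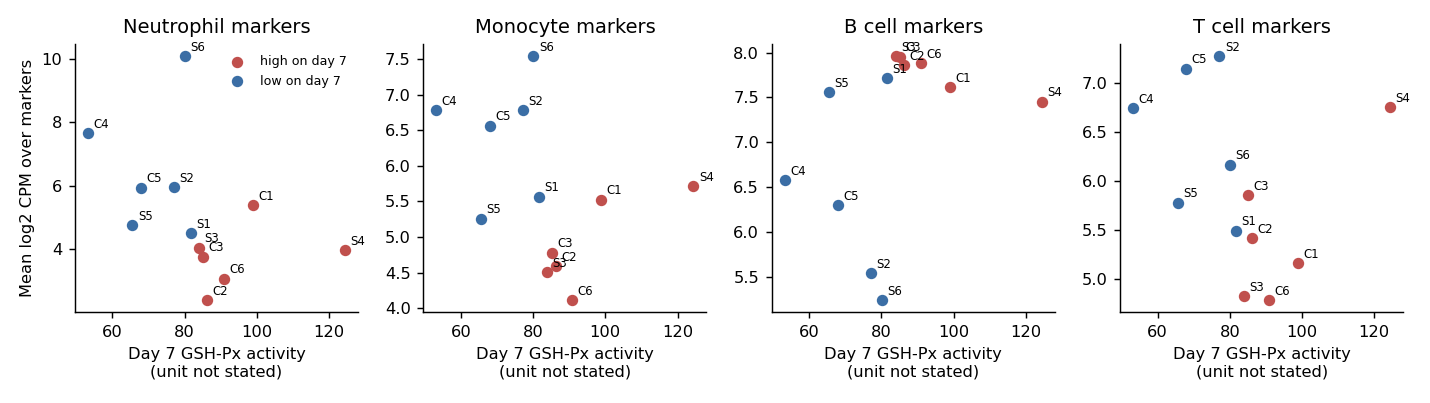
Mean log2 CPM over the neutrophil, monocyte, B cell and T cell markers (y axes) against day 7 GSH-Px activity (x axis, unit not stated), one point per cow (S supplemented, C control; red high class, blue low class). The neutrophil score of supplemented cow 6, at 10.1, is the highest, and high cows lie at 7.45 to 7.96 in the B cell panel.

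All 17 neutrophil markers had lower values in high cows, 17 at an unadjusted p under 0.05 beside 20.8% of all genes, and 0 were called. The median log2 fold change was -3.92, and -2.24 without supplemented cow 6. Without that cow and control cow 5, 16 of the 17 passed the count minimum. S100A8, S100A9 and S100A12, the calgranulins of neutrophils and monocytes, shared one order of cows at the top. S100A12 ranged from 168 over a median of 362 to 653 CPM in high cows and from 534 over 1524 to 38989 CPM in low cows, with supplemented cow 6 highest and control cow 4 next at 5485 CPM. Its log2 fold change was -4.38 (SE 1.10; adjusted p = 0.0515 in edgeR), and -2.30 without supplemented cow 6. S100A8 had -4.55 (SE 1.22) with supplemented cow 6 and -1.97 without it, and S100A9 had -4.59 (SE 1.19) with it and -2.42 without it. CSF3R, the receptor for granulocyte colony-stimulating factor, ranged from 45.9 over 117 to 398 CPM in high cows and from 264 over 717 to 4965 CPM in low cows. Control cow 1 was the one high cow inside the range of the low class, and the log2 fold change was -3.25 (SE 0.79), or -2.18 without supplemented cow 6. CXCR2, the receptor of CXCL8 on neutrophils, averaged 7.39 CPM in high cows and 135 CPM in low cows, with no overlap (-4.20, SE 0.93).

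The granule and antimicrobial list had 24 of 28 members in the table past the count minimum. Its median log2 fold change over all 12 libraries was -4.57 in edgeR and -2.42 in limma-voom. In edgeR 23 of the 24 members were lower at an unadjusted p under 0.05, beside 20.8% of all genes. Without supplemented cow 6 the median was -1.99. Several of these genes passed the minimum through a few low cows only: without supplemented cow 6 and control cow 5, 16 members passed it. In that fit 11 of them were at an unadjusted p under 0.05, beside 19.9% of all genes, and the median was -2.08. Resistin, RETN, averaged 9.15 CPM in high cows and 259 CPM in low cows (-4.82, SE 1.29), and haptoglobin, HP, averaged 99.5 CPM in high cows and 724 CPM in low cows (-2.86, SE 0.80).

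The 16 monocyte markers also all had lower values in high cows, 13 at an unadjusted p under 0.05 beside 20.8% of all genes. Their median was -1.58. CD14, a coreceptor for lipopolysaccharide, ranged from 16.4 over a median of 47.7 to 128 CPM in high cows and from 90.6 over 194 to 382 CPM in low cows. Supplemented cow 4 and control cow 1 were the 2 high cows inside the range of the low class, and the log2 fold change was -1.79 (SE 0.53; adjusted p = 0.0554 in edgeR). CSF1R, the receptor for macrophage colony-stimulating factor, ranged from 58.2 over 102 to 223 CPM in high cows and from 129 over 305 to 415 CPM in low cows (-1.13, SE 0.39; adjusted p = 0.072 in edgeR). TLR4, the lipopolysaccharide receptor, averaged 38.8 CPM in high cows and 179 CPM in low cows (-2.20, SE 0.51).

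With the myeloid score as a covariate fewer genes had low p-values. The unadjusted p was under 0.05 in 417 genes (3.48%) for the classes, against 4441 without the covariate, and in 221 (1.84%) for the rank, against 1585. Adding treatment as well gave 595 and 216 genes, and 0 genes were called in any of these fits. The score was built from these libraries and differed between the classes, so the class and the score share variance and their parts cannot be told apart in 12 cows. Among the genes named above, CXCL8 had a log2 fold change of -2.43 in this fit, CXCL2 -2.17, CD69 -1.59, CDKN1A -1.48 and PHOSPHO1 -1.25. TLR10 had 1.31, HS3ST1 1.23, REPIN1 0.69, MRPL19 0.49 and CDC16 0.41, so all 10 kept their sign. Those 10 were chosen by the class comparison in the same cows, so their signs here are a description only. S100A8, S100A9 and S100A12, which are part of the score, had 0.89, 0.59 and 0.51. GPX3 had -0.57, SOD2 -0.12, GSS -0.016 and CD79A -0.019. All of these had an adjusted p of 0.982 or above in edgeR.

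**Figure D5:**
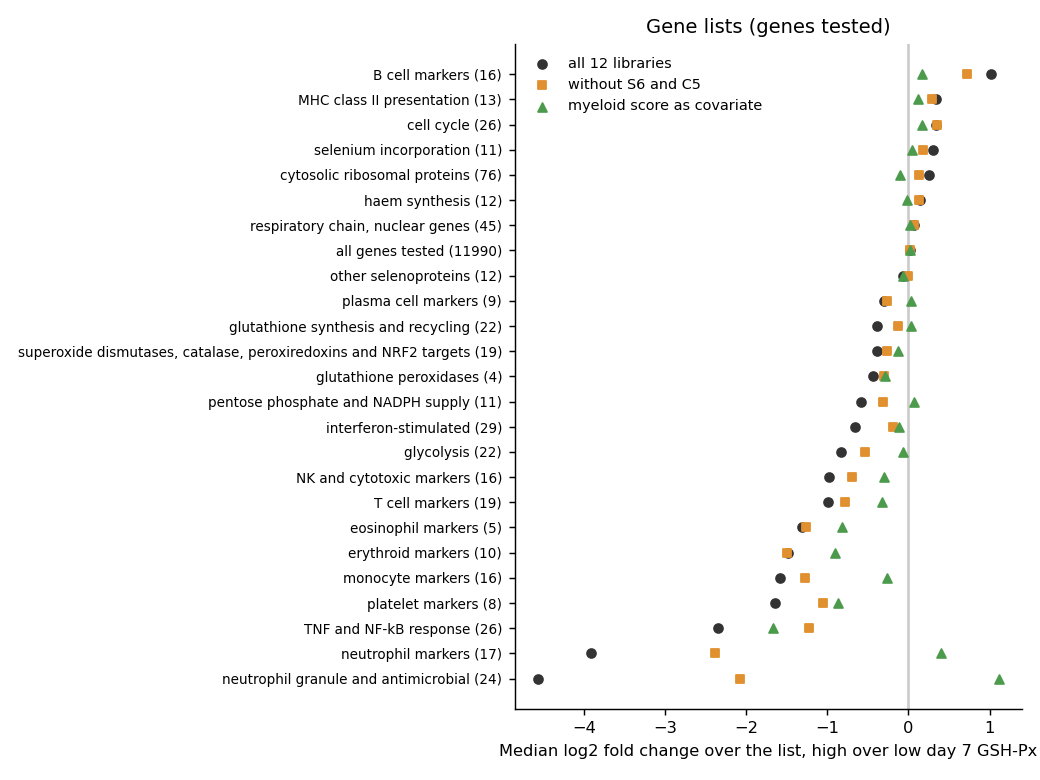
Median log2 fold change of high over low day 7 GSH-Px (x axis) for each gene list (y axis, number of genes tested in brackets), over all 12 libraries (black circles), without supplemented cow 6 and control cow 5 (orange squares; fewer genes pass the minimum in some lists) and with the myeloid score as a covariate (green triangles). The neutrophil lists go from -4.57 and -3.92 over all libraries to positive medians with the covariate, and the TNF and NF-kB list goes from -2.35 to -1.67. The score is the mean of the neutrophil and monocyte markers, and the granule list shares genes with it. For the neutrophil and monocyte lists the covariate fit is therefore no test.

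Most TNF and NF-kB response genes had lower values in high cows. Of 26 TNF and NF-kB response genes, 0 had higher and 20 had lower values in high cows at an unadjusted p under 0.05 (beside 16.3% and 20.8% of all genes), and 0 were called. The median was -2.35 over all libraries, -1.29 without control cow 5 and -1.22 without control cow 5 and supplemented cow 6. With the myeloid score as a covariate it was -1.67, and 8 of the 26 had an unadjusted p under 0.05, beside 3.48% of all genes in that fit. PLAUR, the urokinase receptor, averaged 8.74 CPM in high cows and 123 CPM in low cows (-3.82, SE 0.73). NFKBIZ, a nuclear inhibitor protein of NF-kB, averaged 90.9 CPM in high cows and 481 CPM in low cows (-2.40, SE 0.55). IL1B, the gene of the cytokine interleukin-1 beta, averaged 39.8 CPM in high cows and 442 CPM in low cows (-3.48, SE 0.98). The NF-kB subunit genes NFKB1 and RELB had 0.078 and 0.12. By the rank, 19 of the 26 had a negative slope at an unadjusted p under 0.05, beside 7.06% of all genes.

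Interferon-stimulated genes and the genes of glycolysis also had mostly lower values in high cows. In the interferon list 0 of 29 had higher and 16 of 29 had lower values at an unadjusted p under 0.05, beside 16.3% and 20.8% of all genes. The median was -0.66, and -0.41 without control cow 5. Without supplemented cow 6 and control cow 5 it was -0.19, with 8 of 29 at an unadjusted p under 0.05, beside 19.9% of all genes. With the myeloid score as a covariate it was -0.12 with 0 of 29, beside 3.48% of all genes. IFIT3, an interferon-induced antiviral gene, averaged 25.9 CPM in high cows and 286 CPM in low cows (-3.47, SE 0.82), while MX1, another, averaged 402 CPM in high cows and 273 CPM in low cows (0.56, SE 0.38). In glycolysis 1 of 22 had higher and 14 of 22 had lower values at an unadjusted p under 0.05, beside the same shares. The median was -0.83, or -0.066 with the covariate. PFKFB4, which sets the level of a glycolytic activator, averaged 30.3 CPM in high cows and 95.7 CPM in low cows (-1.66, SE 0.40), and PFKP, a phosphofructokinase, averaged 232 CPM in high cows and 142 CPM in low cows (0.71, SE 0.26).

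B cell markers were the list with the largest positive median of the 24. All 16 had higher values in high cows, 13 at an unadjusted p under 0.05 beside 16.3% of all genes, 0 were called, and the median log2 fold change was 1.02. CD79A, a subunit of the B cell receptor complex, ranged from 664 over a median of 1022 to 1250 CPM in high cows and from 160 over 386 to 995 CPM in low cows. Supplemented cows 1 and 5 of the low class lay inside the range of the high class and the other 4 low cows lay below it, and the log2 fold change was 0.94 (SE 0.41; adjusted p = 0.116 in edgeR). TNFRSF13C, the receptor for the B cell survival factor BAFF, averaged 164 CPM in high cows and 62.3 CPM in low cows (1.40, SE 0.50). SPIB, a transcription factor of B cells and plasmacytoid dendritic cells, averaged 914 CPM in high cows and 328 CPM in low cows (1.48, SE 0.55). Without supplemented cow 6 and control cow 5, 1 of the 16 had an unadjusted p under 0.05, beside 19.9% of all genes, and the median was 0.72. With the myeloid score as a covariate the median was 0.16 with 0 of 16, beside 3.48% of all genes.

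T cell markers ran the other way from B cell markers. Of 19, 18 had lower values in high cows, 8 at an unadjusted p under 0.05 beside 20.8% of all genes, and the median was -0.996. Without supplemented cow 6 and control cow 5 the median was -0.78, with 3 of 19 at an unadjusted p under 0.05, beside 19.9% of all genes. CD3E, a chain of the T cell receptor complex, ranged from 68.1 over a median of 108 to 353 CPM in high cows and from 107 over 343 to 490 CPM in low cows (-1.11, SE 0.47; adjusted p = 0.11 in edgeR). Supplemented cow 4, the cow with the highest activity, had the highest CD3E of its class, and without it the log2 fold change was -1.60. NK and cytotoxic markers had a median of -0.98, or -1.69 without supplemented cow 4. Of these markers 6 of 16 were lower at an unadjusted p under 0.05, beside 20.8% of all genes. With supplemented cow 6 and control cow 5 left out, the median of the NK and cytotoxic markers was -0.70. In that fit 1 of the 16 had an unadjusted p under 0.05, beside 19.9% of all genes. TBX21, a transcription factor of cytotoxic and type 1 helper cells, was the 1 member with a higher value (1.06, SE 0.37). Platelet markers had a median of -1.64 with 6 of 8 lower at an unadjusted p under 0.05, beside 20.8% of all genes. Without supplemented cow 6 and control cow 5, 6 of the 8 passed the count minimum and the median was -1.05. Of these, 2 had an unadjusted p under 0.05, beside 19.9% of all genes.

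Haemoglobin was depleted before sequencing, per the labels' protocols, and red cell transcripts were few. Of 10 erythroid markers, 1 had higher and 2 had lower values in high cows at an unadjusted p under 0.05. Among all genes the shares were 16.3% and 20.8%. The median of the markers was -1.48. Of the 10 markers, 3 had higher and 7 had lower values in high cows at any p. HBB, a haemoglobin chain, averaged 33.1 CPM in high cows and 111 CPM in low cows (-1.76, SE 0.92). It was not among the members at an unadjusted p under 0.05. The erythroid score had Pearson's r = -0.61 (permutation p = 0.027, adjusted p = 0.27) and Spearman's rho = -0.66 (permutation p = 0.0234, adjusted p = 0.109) with the activity over 12 cows, and r = -0.44 without supplemented cow 4 and control cow 4. The 12 haem synthesis genes had a median of 0.14.

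Ribosomal, respiratory and cell cycle genes had small differences. Of 76 cytosolic ribosomal protein genes, 73 had higher values in high cows, 8 of them at an unadjusted p under 0.05 beside 16.3% of all genes. The median was 0.26, 0.16 without supplemented cow 6 and -0.099 with the myeloid score as a covariate. The 45 respiratory chain genes had a median of 0.073 with 2 higher and 2 lower at an unadjusted p under 0.05, below the 16.3% and 20.8% of all genes. In the cell cycle list 7 of 26 were higher at an unadjusted p under 0.05, beside 16.3% of all genes, with a median of 0.34. MCM7, a subunit of the replicative helicase, averaged 278 CPM in high cows and 167 CPM in low cows (0.74, SE 0.21). In the MHC class II list 5 of 13 had higher and 1 of 13 had lower values in high cows at an unadjusted p under 0.05. The shares of all genes were 16.3% and 20.8%. BOLA-DQB averaged 381 CPM in high cows and 123 CPM in low cows (1.63, SE 0.59), though DQ genes are polymorphic and duplicated in cattle, so that reads may be split among copies.

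The class comparison was repeated with classes taken within treatment groups, and within an index set. Taking the 3 highest and 3 lowest cows of each treatment group moved supplemented cow 1 to the high class and control cow 3 to the low class. Both groups were then pooled without a treatment term. In this fit edgeR called 0 genes and 4140 had an unadjusted p under 0.05. The interaction of class and treatment called 0 genes, with 400 at an unadjusted p under 0.05. With the index set as a covariate 3928 genes had an unadjusted p under 0.05 and 0 were called. Within the 8 libraries of the larger index set, 3 high and 5 low, 1635 genes did and 0 were called, and the 4 libraries of the other set, with 1 low cow, were too few. In those 8 libraries CXCL8 had a log2 fold change of -3.63, GPX3 -4.36, GPX1 -0.70 and CD79A 0.67. Without supplemented cow 6 and control cow 5, 2373 genes (19.9%) had an unadjusted p under 0.05 for the class and 1022 (8.58%) for the rank, and 0 were called in either.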

How the data were processed

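RNA of white blood cells from 12 cows was sequenced after haemoglobin depletion, per the labels' protocols. Per the submitters' processing notes, FastQC, STAR, featureCounts and DESeq2 were used with the build ARS-UCD1.2, without versions. Neither annotation nor strand setting is stated, so genes that overlap, lie antisense or are nearly identical may share reads. Gene counts were used as the authors deposited them, raw and whole. A deposited summary gave the count of clusters passing the filter, the percent of high-quality bases and a mean quality score for every library, per the file headers. The GSH-Px, SOD, AC and TBARS values and milk were used as deposited.

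Cows were matched by number between the count table and the activity sheet. Members, classes and gene lists were chosen with earlier results of these data known. The 24 lists held 533 names, of which 488 matched by symbol, 1 through a RefSeq synonym and 44 were not found. Genes averaging 10 raw counts or more were tested with edgeR 4.0.16 (TMM scaling, robust quasi-likelihood test, Benjamini-Hochberg adjustment over all genes, threshold 0.05) on class or rank in R 4.3.3, with DESeq2 1.42.0 and limma 3.58.1 as alternatives. Standard errors are the log2 fold change over the root of F. Log2 CPM used a prior count of 2. Single measures were tested in Python 3.11.15 with scipy 1.17.1 by exact permutation over all splits of the cows, or by 100000 permutations for correlations. Every pair of libraries differed by more than counting noise (chi-square per degree of freedom at least 12.1). The gene tests were tested on simulated data.

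In each comparison the text names the 5 genes with the lowest p in each direction that have a name and a mean of at least 5 CPM, since none passed the threshold, together with all glutathione peroxidases, a set list of redox and cell type genes (1 of them not reported here), and up to 4 members of each gene list by p. HP, IL1B, MX1, NFKB1, PFKP and RELB stand outside that rule and were chosen after their values were seen. Alternatives were treatment, myeloid score, index set or depth as covariates, other scalings and filters, and leaving out each cow. Unplanned gene fits used index set, depth or class as a covariate, the larger index set alone, a pair of cows left out, or no robust estimation.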

Additional observations from a re-analysis of the deposited data

Results flagged for a closer look

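In 12 of 130 sets of values examined (a class of 6 cows and 1 measure each), the highest or lowest cow stood far from its class by Dixon's test, which chance alone does in about 1 of 20 sets. The sets share cows and genes, and no explanation was tested.

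Supplemented cow 6 was far above the other low cows in the percent of counts in the 10 most counted genes, at 11.4%, and in log2 CPM of TXNRD1 at 7.87 and SOD2 at 12.3. Supplemented cow 1, the low cow nearest to the high class, was far above the other low cows in GSH-Px on day 4, at 90.1, and in log2 CPM of NDUFAF1 at 4.41 and NKAP at 3.43. Control cow 1 stood apart from the other high cows in log2 CPM of TLR10 at 3.11, HS3ST1 at 3.56 and TXNRD1 at 6.96, which were low, and of CXCL2 at 4.69, which was high. Supplemented cow 4 was far above the other high cows in GSH-Px on day 7, at 124.4, the value that chose the classes, and far below them in log2 CPM of GPX7, at 5.39.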

How the results depend on the processing

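No paired analysis was possible because cow numbers only name the animals. Genes called between classes numbered 0 in edgeR, 2746 with DESeq2, 659 without robust estimation and 0 to 3766 when 1 cow was left out. The 10 genes named for the class kept their sign in all 28 alternatives. They were chosen by their p-values in these same cows, so the kept signs are a description only. For the rank DESeq2 called 29 and the other alternatives 0. Scores that passed numbered 4, 0 after centring by treatment (myeloid difference -1.92) and 0 to 9 with 1 cow left out (myeloid difference -2.43 to -1.66). Score correlations that passed numbered 0 to 3 with 1 cow left out (myeloid rho -0.736 to -0.518), GSH-Px days 0 to 1 and library measures 0 to 1.

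With the myeloid score alone, and with treatment as well, signs turned for GPX1 (0.071, 0.051), GPX7 (-0.42, -0.46), GCLC (-0.048, -0.058), GCLM (0.39, 0.43), SOD1 (-0.36, -0.35), CD79A (-0.019, -0.073), S100A8 (0.89, 1.01), S100A9 (0.59, 0.66) and S100A12 (0.51, 0.54). SOD1 and TXNRD1 also turned: to -0.031 and -0.023 with DESeq2, to -0.031 and -0.022 with its size factors in edgeR, to -0.028 and -0.00936 at a minimum of 50, and to -0.063 and -0.0449 without supplemented cow 4 and control cow 4. SOD1 turned to -0.028 with the index set and -0.024 with log2 total count as covariates, TXNRD1 to -0.047 with classes taken within treatment, and GCLM to 0.034 without supplemented cow 6 and control cow 5. Centred by treatment, GSH-Px on day 0 differed by 1.36, AC by 0.044 and OSi by -0.16. With 1 cow left out, GSH-Px on day 0 ranged from -5.18 to 5.66, SOD from -0.038 to 0.064, AC from -0.14 to 0.0066, OSi from -0.13 to 0.12, total count from -1826750 to 252079, clusters passing the filter from -5148460 to 344381, the share of the 10 most counted genes from -0.71 to 0.065 percentage points, SOD1 from -0.092 to 0.10 and TXNRD1 from -0.028 to 0.19. The causes were not tested. With 6 cows a class, small differences are not resolved, and genes near 1 CPM rest on few reads.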
